A study of Mus musculus with 11 samples.

Results

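The EGF family of ligands, the receptors they act on and the receptor inhibitor Errfi1 were described in mouse embryonic palatal mesenchyme cells, primary cultures of the cells that form the connective tissue of the secondary palate, taken from E13.5 embryos. The 10 genes are 7 ligand genes (Hbegf, Ereg, Areg, Btc, Tgfa, Epgn and Nrg1), 2 receptor genes (Egfr and Erbb2) and Errfi1. They were found as the rows of the deposited table whose RefSeq accessions map to those symbols, 10 of 23286 rows. The set was put together with results of these data in view, and its genes were chosen by their group FPKM values, mainly those of Hbegf, Ereg and Errfi1 after growth factor. All values below are therefore a description and carry no test. The 3 conditions were profiled by polyA RNA-seq, all in cells grown in 10% serum and then kept overnight in 0.1% serum. In the first, cells received FGF1 at 50 ng/mL together with heparin at 1 µg/mL, and were taken after 1 h (3 libraries). In the second, they received PDGFA at 30 ng/mL and were taken after 1 h (4 libraries). In the third, cells were starved only (4 libraries). Heparin was given only with FGF1, so effects of FGF1 and of heparin cannot be told apart, and the doses of the ligands differ. The labels name no strain or sex and do not say whether libraries came from separate cultures.

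Ligands of this family are made as membrane-anchored precursors that ADAM-type proteases release from the cell surface. They bind EGFR or its relatives ERBB3 and ERBB4, which pair with each other and with ERBB2, a receptor with no known ligand of its own, and switch on the RAS-ERK chain. ERRFI1, also called MIG6, binds the kinase domain of EGFR and blocks it, and its gene is a familiar early target of ERK signalling, as are the genes of several EGFR ligands. In palate development EGFR signalling is best known from the epithelium and from mice without Egfr, which can have a cleft palate.

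Each group is represented by 1 FPKM value per gene (fragments scaled to transcript length and to the number of mapped fragments), estimated by the authors over that group's libraries, with a deposited lower and upper bound given here in square brackets. No spread between replicates can be computed from such values. A gene is called higher or lower only where its intervals in the groups under comparison did not meet, among the 11702 rows with at least 1 FPKM in at least 1 group. Of the 10 genes, 7 passed that minimum. Tgfa, with at most 1.21 FPKM, lay just above it and Btc, with at most 0.920 FPKM, just below it. Areg and Epgn were lower still. Interval widths differed between groups: the median distance from centre to bound was 34.7% of the FPKM with FGF1, 49.6% with PDGFA and 25.6% in starved cells. Sequencing depth was unknown.

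After 1 h of FGF1 with heparin, Hbegf, Ereg and Errfi1 were called higher than in starved cells, 3 of the 7 compared genes, and 0 were lower. Over all compared rows, 0.538% were called higher and 0.0171% lower. After PDGFA, Errfi1 alone was called higher, 1 of 7, where 0.308% of all compared rows were higher and 0% lower. Between FGF1 and PDGFA cells 0 of the 7 genes were called, where 0.0256% of all rows were called higher with FGF1 and 0.094% lower. The genes were picked for such values, so nothing is read from these shares. Both ligands are set against the same starved cells, and the values of both are therefore given side by side.

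Hbegf, on chromosome 18, encodes heparin-binding EGF-like growth factor, a ligand of EGFR and ERBB4. It stood at 57.3 FPKM [38.9 to 75.6] with FGF1, at 26.8 FPKM [13.97 to 39.6] with PDGFA and at 12.0 FPKM [8.80 to 15.1] in starved cells. The FGF1 value was the highest of any of the 10 genes in any group. Its fold over starved cells was 4.78, and the facing and far ends of the intervals allow ratios of 2.57 to 8.58. On log2 values of FPKM + 0.5, the scale of all log2 folds below, the difference was 2.21, rank 19 from the top of the 11702 compared rows. In these bulk samples more cells with the transcript and more transcript per cell cannot be told apart. With PDGFA the fold was 2.24, from interval ends 0.923 to 4.50, and the intervals overlapped by little: the lower PDGFA bound was 13.97 FPKM and the upper starved bound 15.1 FPKM. The log2 fold of 1.13 was rank 161. Directly between the ligands, Hbegf was 2.14-fold higher with FGF1 than with PDGFA, and the intervals again met only at their ends, with a lower bound of 38.9 FPKM with FGF1 and an upper bound of 39.6 FPKM with PDGFA. That log2 fold of 1.08 was rank 11 of all compared rows.

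Ereg encodes epiregulin, which also binds EGFR and ERBB4. Its values were 6.73 FPKM [4.53 to 8.91] with FGF1, 4.43 FPKM [2.29 to 6.56] with PDGFA and 2.02 FPKM [1.41 to 2.62] in starved cells. It was 3.34-fold higher with FGF1 than in starved cells (interval ends 1.73 to 6.33, log2 fold 1.52, rank 34). With PDGFA the ratio was 2.20 (0.877 to 4.65, log2 fold 0.97, rank 186), and the intervals overlapped between 2.29 and 2.62 FPKM. In the row, 141 of 4128 exon bases overlap exons of Gm19610 on the opposite strand, and whether the counting used strand is not given in the sources used here. This gene is poor in G and C (39.2% of its transcript, against a median of 50.4% over compared rows), and the PDGFA log2 folds of all rows moved with GC content (Spearman correlation 0.61 across 11466 rows, which are not independent). For the FGF1 log2 folds that correlation was 0.18. With a trend on GC content and transcript length removed, the log2 fold of Ereg with PDGFA was 1.17 and it was called higher, as were 0.305% of the rows then compared. Its log2 fold over starved cells with FGF1 was then 1.55. Between FGF1 and PDGFA it was 0.37, in place of 0.55, and was not called in either case. For Hbegf and Errfi1, at 49.9% and 47.5% GC, the PDGFA log2 folds without that trend were 1.14 and 2.01, and their calls stayed as they were.

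Of the 10 genes, Errfi1 was called higher with both ligands. It had 36.4 FPKM [25.0 to 47.8] with FGF1, 27.7 FPKM [12.9 to 42.5] with PDGFA and 6.84 FPKM [5.06 to 8.61] in starved cells. Both treated intervals lay above the starved one. The row holds 1 of the 2 Errfi1 transcripts of the RefSeq table and spans 13.8 kb of a gene of 15.1 kb. The fold was 5.32 with FGF1 (interval ends 2.90 to 9.45) and 4.05 with PDGFA (1.50 to 8.40). In log2 terms these were 2.33 and 1.94, at rank 17 and rank 115. Between the ligands the ratio was 1.31, with interval ends 0.588 to 3.70, and the intervals overlapped over most of their length.

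Both looser rules tried beside the main one left the 3 calls of FGF1 over starved cells as they were. They changed the counts for PDGFA over starved cells and for FGF1 over PDGFA. Where a difference had only to exceed the root of the summed squares of the facing interval arms, Hbegf, Ereg and Errfi1 were all called higher with PDGFA than in starved cells (3 of 7, against 0.53% of all compared rows), and Hbegf was called higher with FGF1 than with PDGFA (1 of 7, against 0.111%). Where each FPKM had only to lie outside the other interval, the same 3 genes were called with PDGFA (against 0.59% of rows), and Hbegf and Ereg were called higher with FGF1 than with PDGFA (2 of 7, against 0.35%).

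**Figure D1:**
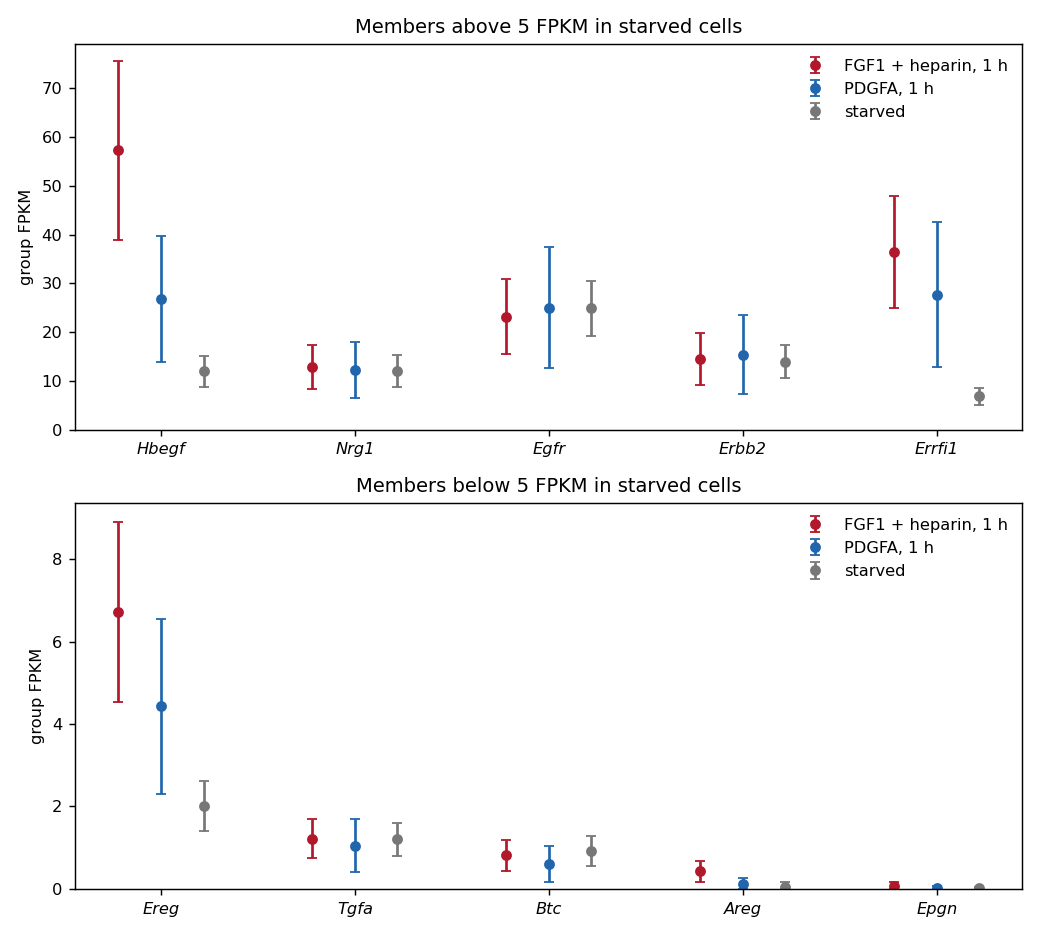
Group FPKM of the 10 genes (y axis, linear, from 0) with FGF1 and heparin, with PDGFA and in starved cells; points are the authors' group estimates and bars their deposited intervals. Hbegf, Ereg and Errfi1 with FGF1 stand clear of the starved interval, with PDGFA only Errfi1 does, and the Egfr, Erbb2 and Nrg1 intervals overlap in all 3 groups.

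The receptor genes kept close levels. Egfr stood at 23.2 FPKM [15.6 to 30.9] with FGF1, 25.0 FPKM [12.6 to 37.5] with PDGFA and 24.9 FPKM [19.3 to 30.6] in starved cells. All 3 intervals overlapped. The ratio to starved cells was 0.931 with FGF1 (interval ends 0.509 to 1.60) and 1.00 with PDGFA (0.411 to 1.94), and smaller changes than those ends could not be seen with intervals this wide. Erbb2, the ligandless partner receptor, had 14.5 FPKM [9.14 to 19.8] with FGF1, 15.4 FPKM [7.32 to 23.5] with PDGFA and 13.95 FPKM [10.6 to 17.3] in starved cells, again overlapping throughout. Its ratios to starved cells were 1.04 (0.527 to 1.87) with FGF1 and 1.10 (0.422 to 2.22) with PDGFA. Exons of Mien1 on the opposite strand overlap 9 of its 5012 exon bases. The other family receptors were scarcely detected: Erbb3 had 0.238 FPKM with FGF1, 0.202 with PDGFA and 0.317 in starved cells, and Erbb4 had 0.107, 0.0609 and 0.0682 FPKM in the same groups.

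Nrg1 encodes neuregulin 1, a ligand of ERBB3 and ERBB4. It had 12.9 FPKM [8.42 to 17.3] with FGF1, 12.2 FPKM [6.45 to 17.9] with PDGFA and 12.0 FPKM [8.71 to 15.3] in starved cells. The groups overlapped almost fully, with ratios to starved cells of 1.07 (0.550 to 1.99) and 1.01 (0.421 to 2.06) for FGF1 and PDGFA. The row holds 1 of the 43 Nrg1 transcripts of the RefSeq table and spans 100.2 kb of a gene of 1084 kb. Transcripts from its other start sites thus have no value of their own. Whether fragments from exons they share with this row were counted in it is not given in the sources used here. Tgfa, the gene of transforming growth factor alpha, had 1.21 FPKM [0.738 to 1.69] with FGF1, 1.05 FPKM [0.405 to 1.69] with PDGFA and 1.20 FPKM [0.802 to 1.60] in starved cells. The intervals of Tgfa allow ratios to starved cells of 0.461 to 2.11 with FGF1 and of 0.253 to 2.11 with PDGFA. Exons of Gm43917 on the opposite strand overlap 118 of its 4527 exon bases. The row holds 1 of the 2 Tgfa transcripts of the RefSeq table.

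**Figure D2:**
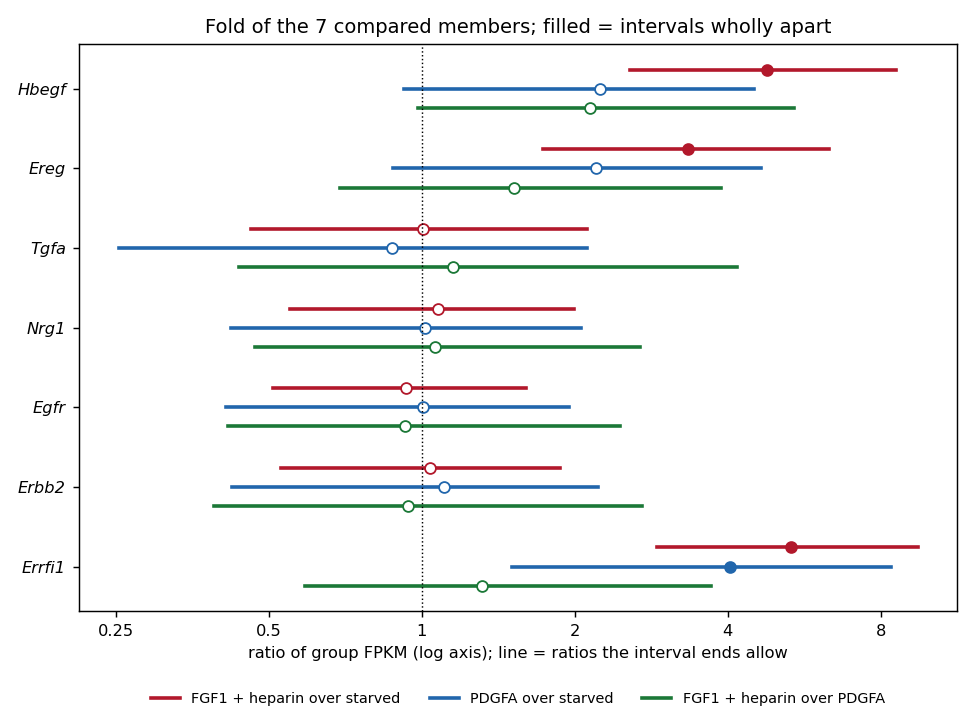
Ratio of group FPKM (x axis, log scale) for the 7 compared genes, FGF1 and heparin over starved (red), PDGFA over starved (blue) and FGF1 and heparin over PDGFA (green); lines run between the ratios that the interval ends allow. The 4 filled points, Hbegf, Ereg and Errfi1 with FGF1 and Errfi1 with PDGFA, have intervals wholly apart, and every other line crosses a ratio of 1.

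Epgn, Ereg, Areg and Btc lie side by side on chromosome 5 (mm10), at chr5:91027517-91035212, chr5:91074617-91093649, chr5:91139615-91148432 and chr5:91357261-91402994, the order in which the table lists them apart from Gm19619, which sits between Areg and Btc and is listed at 0 in all groups. Within this cluster the levels differed. Ereg alone passed 1 FPKM. Areg, the gene of the EGFR ligand amphiregulin, had 0.426 FPKM [0.159 to 0.667] with FGF1, 0.125 FPKM [0 to 0.254] with PDGFA and 0.0541 FPKM [0 to 0.159] in starved cells. Its lower bound with FGF1 was equal to its upper bound in starved cells, and it was too low to be compared. The log2 fold of Areg with FGF1 was 0.74, and 1.77 with a pseudocount of 0.1 in place of 0.5, which shows how far the pseudocount sets the size at such levels. Epgn, of the EGFR ligand epigen, had 0.0826 FPKM [0 to 0.179] with FGF1, 0.0316 FPKM [0 to 0.0671] with PDGFA and 0.0225 FPKM [0 to 0.0447] in starved cells. All of its intervals reach 0. Btc, of betacellulin, a ligand of EGFR and ERBB4, ran the other way by value, with 0.815 FPKM [0.437 to 1.19] with FGF1, 0.608 FPKM [0.172 to 1.03] with PDGFA and 0.920 FPKM [0.556 to 1.28] in starved cells, and its intervals overlapped. The genes listed next to the cluster had overlapping intervals too: Mthfd2l, a mitochondrial folate enzyme gene, had 4.61 FPKM with FGF1, 4.05 with PDGFA and 3.91 in starved cells, and Parm1 on the far side had 16.6, 17.3 and 15.8 FPKM.

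The other genes lie at chr6:86195251-86275449 (Tgfa), chr8:31818028-31918203 (Nrg1), chr11:16752203-16913907 (Egfr), chr11:98412484-98438988 (Erbb2) and chr4:150855091-150868880 (Errfi1). RefSeq promoter sequences (build GRCm38.p6) matched 7 of the 10 genes: Areg, Btc, Tgfa, Epgn, Egfr, Erbb2 and Errfi1. The 250 bases before the start site nearest to the row's own start are shown for 4 of them, 5′ to 3′: Errfi1, the inhibitor called higher with either ligand, Areg, the ligand whose FGF1 and starved intervals met, and Btc and Egfr, whose intervals overlapped. Capitals mark a full cAMP response element, TGACGTCA.
Errfi1 promoter, chr4:150854820-150855069 (+ strand): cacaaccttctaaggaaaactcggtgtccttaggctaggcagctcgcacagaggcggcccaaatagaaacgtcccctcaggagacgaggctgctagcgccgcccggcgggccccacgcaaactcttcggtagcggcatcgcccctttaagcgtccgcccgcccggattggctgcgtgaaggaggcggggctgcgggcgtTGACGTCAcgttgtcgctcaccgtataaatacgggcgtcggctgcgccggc
Areg promoter, chr5:91139349-91139598 (+ strand): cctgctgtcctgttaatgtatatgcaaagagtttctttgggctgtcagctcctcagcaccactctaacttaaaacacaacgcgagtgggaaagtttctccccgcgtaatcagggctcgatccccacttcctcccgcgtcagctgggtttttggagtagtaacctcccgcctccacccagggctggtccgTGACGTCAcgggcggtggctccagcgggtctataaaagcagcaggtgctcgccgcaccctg
Btc promoter, chr5:91402995-91403244 (- strand): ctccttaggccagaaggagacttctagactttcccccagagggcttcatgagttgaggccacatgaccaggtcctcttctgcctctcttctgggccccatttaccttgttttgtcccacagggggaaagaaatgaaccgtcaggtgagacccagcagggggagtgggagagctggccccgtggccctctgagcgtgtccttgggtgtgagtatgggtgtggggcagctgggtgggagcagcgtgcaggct
Egfr promoter, chr11:16751953-16752202 (+ strand): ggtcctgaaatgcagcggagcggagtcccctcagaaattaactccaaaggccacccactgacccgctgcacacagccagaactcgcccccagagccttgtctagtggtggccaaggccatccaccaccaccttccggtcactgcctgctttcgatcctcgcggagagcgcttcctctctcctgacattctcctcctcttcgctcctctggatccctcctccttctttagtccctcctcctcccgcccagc

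Errfi1 and Areg each hold the full cAMP response element once, with its first base at position -51 in Errfi1 and -61 in Areg, counted from the base before the start site as -1. The same 8 letters occur in 1.55% of the 32817 RefSeq promoter windows of that length. The windows of Btc, Tgfa, Epgn, Egfr and Erbb2 do not hold them. Both strands were searched for 6 further motifs: the AP-1 site TGANTCA (6.75% of windows), the EGR site GCGNGGGCG (4.70%), the ETS core CCGGAAGT (2.88%), the CArG box of serum response factor (1.47%), the GC box GGGCGG (32.7%), which can overlap an EGR site, and the element's own first letters TGACG (17.7%), which the full element contains on both strands. No AP-1, EGR, ETS or CArG match was found in the 7 windows. Errfi1 held 3 GC boxes, Tgfa 2, and Areg and Egfr 1 each. Apart from the letters within the full elements, TGACG occurred once in Areg, Btc, Epgn and Erbb2. These are matches of letters only.

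Within starved cells the order of levels was Egfr, Erbb2, Nrg1, Hbegf, Errfi1, Ereg, Tgfa, Btc, Areg and Epgn. Neighbours in that order whose intervals lay apart were Egfr and Erbb2, Hbegf and Errfi1, Errfi1 and Ereg, and Btc and Areg, and all other neighbours overlapped. With PDGFA the order began with Errfi1, Hbegf and Egfr, and only Ereg and Tgfa, as neighbours, had intervals apart. With FGF1 it began with Hbegf, Errfi1 and Egfr, and again only the intervals of Ereg and Tgfa were apart. FPKM is scaled by transcript length, and on that basis levels of different genes were set beside each other. That scaling alone does not remove effects of GC content or of which transcripts a row holds. Whether the deposited intervals allow for such effects is not stated. Hbegf and Egfr changed places: the ratio of the Hbegf to the Egfr level was 2.47 with FGF1, with the Hbegf interval wholly above that of Egfr, 1.07 with PDGFA, with overlapping intervals, and 0.481 in starved cells, with the Hbegf interval wholly below. For Errfi1 the ratio to Egfr was 1.57 with FGF1 and 1.11 with PDGFA, overlapping in both, and 0.275 in starved cells, where its interval lay below. Ereg was 5.55 times the level of Tgfa with FGF1 and 4.21 times with PDGFA, with intervals apart in both, and 1.67 times in starved cells, with intervals that overlapped.

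Summed over the 7 ligand genes, the level was 79.5 FPKM with FGF1, 45.2 FPKM with PDGFA and 28.2 FPKM in starved cells, sums of group estimates that have no interval of their own. Hbegf made up 72.1% of that sum with FGF1, 59.3% with PDGFA and 42.5% in starved cells. Without Nrg1, whose row holds only 1 of its 43 transcripts, the Hbegf shares were 86.1%, 81.1% and 74.0% in those groups. Nrg1, with much the same FPKM in each group, made up 16.2%, 26.9% and 42.6%. Ereg stayed at 8.46%, 9.79% and 7.15% of the sum, and Tgfa, Btc, Areg and Epgn each made up less than Ereg in every group. Egfr and Erbb2 summed to 37.7 FPKM with FGF1, 40.4 FPKM with PDGFA and 38.9 FPKM in starved cells.

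**Figure D3:**
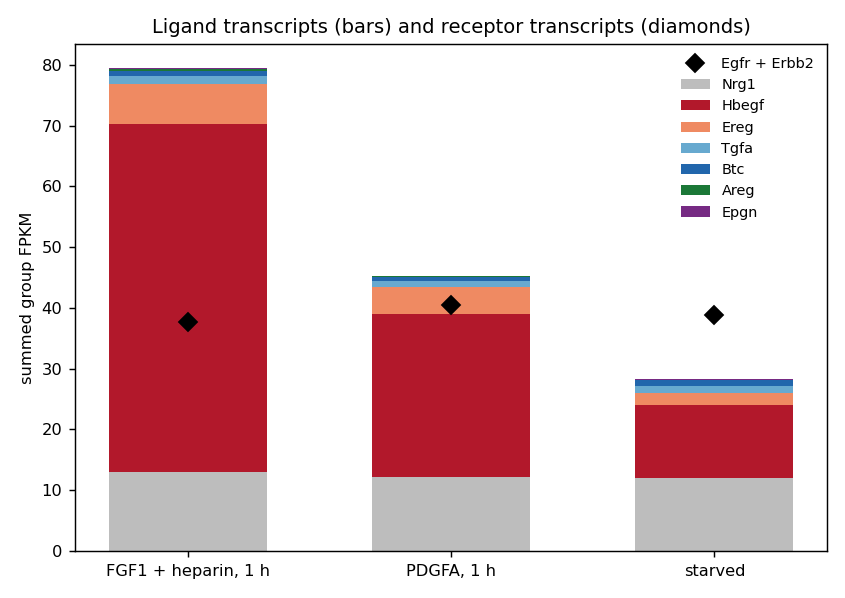
Summed group FPKM of the 7 ligand genes (stacked bars, y axis) and of Egfr with Erbb2 (diamonds) in the 3 groups; no error is shown because the sums have none. The ligand sum is 79.5 with FGF1, 45.2 with PDGFA and 28.2 in starved cells, most of the difference being Hbegf, while the receptor sum lies between 37.7 and 40.4.

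For the wider pathway, 50 further genes in 4 lists were examined, taken by their known roles. In each of the 3 comparisons 0 of the 42 compared genes were called. The shares called higher over all rows (0.538% with FGF1, 0.308% with PDGFA and 0.0256% between ligands) would give less than 1 call in 42 genes, so a count of 0 is near the background. Their median log2 fold was 0.07 with FGF1 and 0.00 with PDGFA, where all compared rows had 0.02 and 0.00. None of the 6 remaining family members (Egf, Nrg2, Nrg3, Nrg4, Erbb3 and Erbb4) reached 1 FPKM, the highest starved values being those of Erbb3 and of Nrg4, a neuregulin, with 0.247 FPKM with FGF1, 0.252 with PDGFA and 0.299 in starved cells. Among 12 sheddase and ligand-processing genes 10 were compared, with log2 folds from -0.09 to 0.23 with FGF1 and from -0.22 to 0.30 with PDGFA. The highest were Timp3, a secreted inhibitor of such proteases, at 168 FPKM with FGF1, 146 with PDGFA and 149 in starved cells, and the membrane protease gene Adam9 at 96.3, 87.5 and 87.6 FPKM. Adam17, whose product is the main sheddase of several of these ligands, had 19.9 FPKM with FGF1, 18.8 with PDGFA and 19.9 in starved cells. Its intervals in those groups, [12.2 to 27.6], [8.26 to 29.4] and [14.6 to 25.1], overlapped and are too wide to show that its level was the same.

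All 15 adaptor and RAS-ERK genes were compared. Mapk3, which encodes a kinase of the ERK type, had 66.5 FPKM with FGF1, 72.6 with PDGFA and 59.2 in starved cells. Their log2 folds ran from -0.18 to 0.38 with FGF1 and from -0.26 to 0.69 with PDGFA. Hras marks the upper end in both, with 68.0 FPKM with FGF1, 84.2 with PDGFA and 52.0 in starved cells. All 17 negative regulators other than Errfi1 were compared too, and their medians were 0.06 with FGF1 and -0.03 with PDGFA. Hgs, which sorts internalised receptors for breakdown, had 33.9 FPKM with FGF1, 39.97 with PDGFA and 31.6 in starved cells. Tnk2, a kinase gene whose product shares an EGFR-binding region with ERRFI1, had 28.7, 37.5 and 25.1 FPKM in those groups. Socs3, a cytokine signalling inhibitor, had the largest log2 fold of that list with FGF1, 0.46, with 4.10 FPKM with FGF1, 2.84 with PDGFA and 2.85 in starved cells. Adam17, Hras, Socs3 and Erbb4 were named after their values were seen. Hras, Mapk3, Hgs and Tnk2 are rich in G and C, at 57.7%, 57.6%, 58.1% and 60.5% of their transcripts. The median over compared rows was 50.4%, and PDGFA log2 folds of all rows moved with GC content (Spearman correlation 0.61). Socs3, at 58.7%, had a PDGFA log2 fold of -0.004. The part of that trend in the PDGFA values of Hras, Mapk3, Hgs and Tnk2 was not tested.

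**Figure D4:**
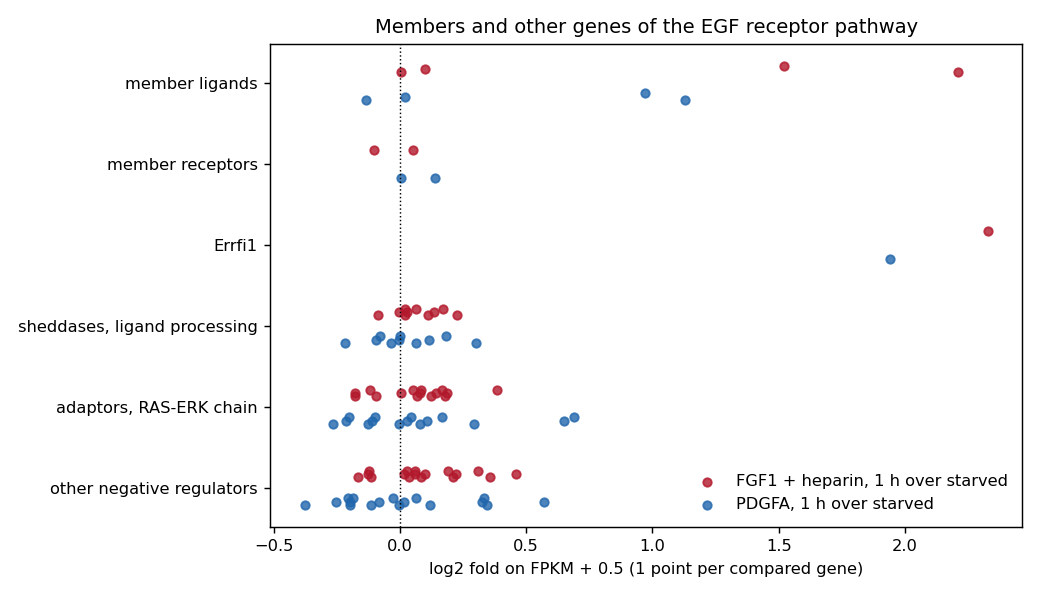
Log2 fold over starved cells (x axis, on FPKM + 0.5) for each compared gene of the family and of the other pathway lists, with FGF1 and heparin in red and PDGFA in blue; each point is 1 gene. Hbegf, Ereg and Errfi1 with FGF1 lie between 1.52 and 2.33, and the 42 other pathway genes lie between -0.18 and 0.46 with FGF1 and between -0.38 and 0.69 with PDGFA.

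The genes with a pair of log2 folds (FGF1 and PDGFA, each over starved cells) most like those of the 3 called genes were found by Euclidean distance over these pairs, which rest on 3 group values. Nearest to Hbegf, with 2.21 and 1.13, were the AP-1 gene Fosl1 at 2.25 and 1.44, the prostaglandin synthase gene Ptgs2 at 2.37 and 1.47 and the AP-1 gene Fos at 1.78 and 1.22. The distances were 0.32, 0.38 and 0.44. Nearest to Ereg, with 1.52 and 0.97, were the MAP kinase phosphatase genes Dusp4 at 1.40 and 0.98 and Dusp6 at 1.68 and 0.99, and the kinase gene Plk3 at 1.62 and 0.79, at distances of 0.12, 0.16 and 0.20. For Errfi1, with 2.33 and 1.94, they were the natriuretic peptide gene Nppb at 2.08 and 2.05, the nucleoporin gene Nupl1 at 2.01 and 1.94 and Ptgs2, at distances of 0.27, 0.32 and 0.48. Of these genes Fosl1, Ptgs2, Fos, Dusp4, Dusp6, Plk3 and Nppb were called higher with FGF1, and Nupl1 was not. With PDGFA, Ptgs2 and Nppb were called.

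The cells were checked against marker genes. Of 9 palatal mesenchyme markers 8 were above 1 FPKM in every group, but at very different levels. Prrx1 had 228 FPKM with FGF1, 206 with PDGFA and 233 in starved cells. Meox2, the lowest of the 8, had 1.02, 1.06 and 1.43 FPKM in those groups. Col1a1 was listed at 0 in all groups with a bound that shows a failed estimate. The 8 epithelial markers, of the cell type in which EGFR ligands are best known, summed to 0.931 FPKM with FGF1, 0.666 with PDGFA and 0.590 in starved cells, with Grhl2 and Esrp1 at 0 in PDGFA and in starved cells. The 5 endothelial markers summed to 3.78, 4.28 and 3.59 FPKM, the 4 glial markers to 2.02, 1.48 and 2.14 FPKM and the 4 macrophage markers to 1.86, 1.76 and 2.04 FPKM in those groups. At least 1 FPKM was reached in every group by 2 of the endothelial markers, 1 of the macrophage markers and 0 of the epithelial markers. Of the glial markers 1 reached it with FGF1, 0 with PDGFA and 1 in starved cells. The 6 skeletal muscle markers summed to 3.98 FPKM with FGF1, 10.8 with PDGFA and 4.34 in starved cells. At least 1 FPKM was reached by 1 of them with FGF1, 3 with PDGFA and 1 in starved cells. Of these 6, Mylpf was highest, at 2.23 FPKM with FGF1, 5.30 with PDGFA and 2.49 in starved cells, and 3 were compared. Their log2 folds with PDGFA ran from 0.80 to 1.40, and 0 of the 3 were called. The sum of this list was thus higher with PDGFA by value only. Its part in the PDGFA values of Errfi1, Hbegf and Ereg was not tested. The 3 compared genes, Myog, Mylpf and Tnni1, have 54.8%, 52.6% and 56.7% G and C, above the median of 50.4% over compared rows. The part of the GC trend in their PDGFA values was not tested either.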

How the data were processed

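PolyA RNA-seq of 11 libraries in 3 groups was deposited as 1 table. The submitters' processing notes name CASAVA, TopHat and Cuffdiff and the build mm10; the versions, the settings and the annotation used are not stated. Each group has 1 deposited FPKM per row, and a deposited lower and upper bound in that unit, of unstated confidence level. Because FPKM is relative to the library total, large changes in some genes can shift others. With no value per library, no replicate test, SD or p-value was possible.

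Gene symbols came from the RefSeq table of GRCm38.p6, the assembly of mm10, for 22992 rows, from GENCODE M21 for 126, and 168 rows stayed unnamed. A row was compared with at least 1 FPKM in a group and no failed estimate (2 rows had one). It was called where intervals lay apart and each FPKM lay inside its own. Log2 folds used a pseudocount of 0.5, and ratios a denominator of at least 1 FPKM. The code of the call rule was run on simulated data, which does not show how often the rule errs in these data. Of the 31-base words of each gene's transcripts, at most 2.95% (Ereg) occur in transcripts of another gene.

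The 10 genes and all lists were chosen with earlier results of these data known. Named genes are the 10, the called genes and the 2 highest starved levels of each other list, the 3 nearest rows of each called gene and the neighbours of clustered genes; exceptions are stated, and 1 gene the rule names is not reported here. The trend on GC content and log2 length was a robust cubic regression over transcripts of at least 200 nt. There were 10 alternatives. Python 3.11.15, pandas 2.3.3 and statsmodels 0.14.6 were used.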

Additional observations from a re-analysis of the deposited data

How the results depend on the processing

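With FGF1 against starved cells, the same 3 genes (Hbegf, Ereg and Errfi1) were called higher under all 10 alternatives. Most of these could not have changed those calls. The pseudocount does not enter a call, and the looser rules keep every row with intervals apart. The changed minimum and a required 2-fold change were met by all 3 genes. Only rescaling of the groups (median-of-ratios or upper-quartile) and removal of the trend on GC content and length could have changed them. With PDGFA against starved cells, 2 genes (Errfi1 and Ereg) were called in place of 1 with the trend on GC content and length removed. With a looser rule, a difference larger than the root of the summed squares of the facing interval arms, 3 were called (Errfi1, Hbegf and Ereg), and likewise 3 where each FPKM only had to lie outside the other interval. Between the ligands these looser rules called 1 gene (Hbegf) and 2 genes (Hbegf and Ereg) higher with FGF1, in place of 0. They also called more of all rows. The rule on interval arms called 123 with FGF1 (103 higher, 20 lower) in place of 65 (63 and 2), 71 with PDGFA (62 and 9) in place of 36 (36 and 0), and 30 between ligands (13 higher and 17 lower with FGF1) in place of 14 (3 and 11). The rule on points outside intervals called 206 (123 and 83), 113 (69 and 44) and 60 (41 and 19), so that between ligands more rows were higher than lower with FGF1. With median-of-ratios scaling that split was 1 and 11. The 50 other pathway genes had 0 calls under every alternative run. No called fold of the 10 genes changed sign. Of 291 log2 folds of these genes under alternatives, 7 changed sign, all of uncalled genes within 0.14 of 0 (Tgfa, Nrg1, Egfr and Erbb2). The 291 include folds under alternatives that change only the minimum or the call rule. Those folds equal the main ones and could not change sign, nor could a new pseudocount turn a sign. The 7 changes came from rescaling or removal of the trend. No paired analysis was possible because the table holds 1 value per group and no value per library, and for the same reason leaving out single libraries was not run. Depth is unknown, and values of Areg, Epgn and Btc are under 1 FPKM, where the pseudocount sets the size of a fold.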
